A study of Mus musculus with 8 samples.

Results

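Expression of 7 genes known for plasmacytoid dendritic cells, Irf8, Spib, Siglech, Cox6a2, Tlr7, Tlr9 and Pacsin1, was followed in early lymphoid progenitors. The genes were listed by symbol and read at all of their probe sets. Together they had 12 probe sets of 45101 on the array, and they are 7 of 18193 genes with a probe set of their own. Affymetrix arrays measured RNA of early lymphoid progenitors of the bone marrow (common lymphoid progenitors, CLP), the stage from which B cells, T cells and other lymphocytes develop. The sort took cells without lineage markers that carried FLT3 and CD127 but no LY6D. The mice, all C57bl/6 and 10 to 13 weeks old, were WT (2 arrays), knockouts of HEB, the product of Tcf12 (HEB-KO, 2 arrays), or knockouts of E2A, the products of Tcf3 (E2A-KO, 4 arrays). Each array held cells pooled from several marrows, with at least 2 sorts per genotype, so the spread between arrays is a spread between pools and not between mice. The labels number the arrays of a genotype as biological replicates but do not say whether each of the 4 E2A-KO arrays had a sort of its own, and p-values here measure only the spread between arrays. The sources used here do not give which parts of Tcf3 and Tcf12 were deleted.

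Plasmacytoid dendritic cells are the dendritic cells that sense viral nucleic acids in endosomes and answer with large amounts of type I interferon. They arise in bone marrow from both myeloid and lymphoid progenitors, and some of their genes are already transcribed in lymphoid progenitors. Their identity rests on an E protein, E2-2 (the product of Tcf4), which belongs to the same basic helix-loop-helix family as HEB and E2A, together with transcription factors of the IRF and ETS families. The members fall into 3 roles: the transcription factors Irf8 and Spib, the nucleic acid sensors Tlr7 and Tlr9, and the genes Siglech, Cox6a2 and Pacsin1 that mark the differentiated cell.

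Start-site sequences are shown because E proteins bind E-boxes (CANNTG, where N is any base). The windows show which of the members carry 1 of 2 chosen forms close to the start of transcription. A RefSeq window of 250 bases before to 50 after a start site (build GRCm38.p6) was at hand for 5 of the 7 members, Irf8 with 2 windows. The search was for CAGGTG and CAGCTG, forms of the E-box that E proteins bind, on both strands (CAGGTG reads CACCTG on the other strand, CAGCTG reads the same on both), and capitals mark the matches. Siglech (chr7:55767934-55768233, plus strand) and Tlr9 (chr9:106222348-106222647, plus strand) each held 1, and Spib (chr7:44532022-44532321, minus strand) held none. Each is printed 5′ to 3′ along its gene.
Siglech: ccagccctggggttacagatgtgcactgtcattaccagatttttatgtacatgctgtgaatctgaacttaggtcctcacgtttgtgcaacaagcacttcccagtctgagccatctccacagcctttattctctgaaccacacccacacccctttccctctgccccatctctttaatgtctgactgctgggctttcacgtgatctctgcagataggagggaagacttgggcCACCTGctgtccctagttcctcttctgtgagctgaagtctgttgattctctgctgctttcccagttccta
Tlr9: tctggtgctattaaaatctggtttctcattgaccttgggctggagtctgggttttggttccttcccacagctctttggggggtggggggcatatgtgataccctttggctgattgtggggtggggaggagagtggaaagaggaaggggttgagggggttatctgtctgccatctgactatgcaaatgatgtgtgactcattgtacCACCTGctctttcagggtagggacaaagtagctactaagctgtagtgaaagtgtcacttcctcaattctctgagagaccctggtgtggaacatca
Spib: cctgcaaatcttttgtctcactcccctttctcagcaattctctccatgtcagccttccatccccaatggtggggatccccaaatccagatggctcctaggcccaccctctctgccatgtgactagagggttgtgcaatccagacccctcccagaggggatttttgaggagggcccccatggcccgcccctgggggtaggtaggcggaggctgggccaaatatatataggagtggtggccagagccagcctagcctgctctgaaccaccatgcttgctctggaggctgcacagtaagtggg
The match lay at -20 in Siglech and at -45 in Tlr9, counted from the start site. One of the 2 windows of Irf8 held CAGGTG at -205, and the other window of Irf8 and that of Pacsin1 held neither form. Of 32851 windows of this length, 20.2% held CAGGTG, 16.3% held CAGCTG and 32.9% held either. Counting every CANNTG, Siglech held 3, Tlr9 4, Spib 2 (at -165 and -136) and Pacsin1 0. The windows of Irf8 held 0 and 2, and 72.3% of all windows held a CANNTG. A match is a description of these letters and not a binding site.

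Values are given as log2 intensity, where a step of 1 is a doubling of signal, and the arrays are called by genotype and replicate number. A difference is a log2 difference from a limma model fitted to all genes on all 8 arrays, and it was called when its Benjamini-Hochberg adjusted p over 11957 tested genes was under 0.05. Each gene enters that fit with its brightest probe set, and all 7 members were tested. The differences and the other probe sets come from the same arrays, so they are not independent. The arrays were alike in median intensity, 14.14 to 15.41. They differed more in the log2 signal of the actin control at the 3′ end minus that at the 5′ end. It was 4.45 and 3.84 on WT, 3.37 and 3.58 on HEB-KO and 3.86 to 4.78 on E2A-KO arrays. For the Gapdh control it ran from 4.67 on HEB-KO 1 to 6.03 on WT 1. The part of these end differences where probe sets of 1 gene disagree was not tested. At its brightest probe set Tcf3 read 7.76 and 7.98 on WT, 8.57 and 8.44 on HEB-KO, and 3.71 to 4.28 on E2A-KO arrays. Tcf12 read 8.85 and 8.76, then 7.10 and 6.49, then 8.52 to 8.64 in the same order. At these probe sets the targeted gene was lowest in its own knockout. The other Tcf12 probe sets differed by -1.19, 0.14, -0.49 and -0.90 in HEB-KO against WT. The other Tcf3 probe sets differed by -0.70 and -0.54 in E2A-KO against WT. Whether these probe sets lie in the deleted parts was not tested. The hybridization control level, a measure of RNA added to each array by the laboratory, was 11.23 on WT 1, 10.07 on WT 2, 10.11 on HEB-KO 1, 11.42 on HEB-KO 2 and 11.32 to 12.51 on E2A-KO arrays.

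Of 9 listed markers of the sorted cell, all 8 measured here, Flt3, Il7r, Cd27, Rag1, Dntt, Notch1, Cd93 and Ptprc, lay above the array median on every WT and HEB-KO array, and at least 7 did on each E2A-KO array. Flt3 read 10.47 and 10.66 on WT, 11.04 and 10.50 on HEB-KO and 10.12 to 10.53 on E2A-KO arrays. All 8 had a lower mean in E2A-KO than in WT. In 7 of them every E2A-KO array lay below both WT arrays, as for 15.4% of all tested genes. Il7r read 10.51 and 10.91 on WT, 10.88 and 10.50 on HEB-KO and 7.89 to 9.04 on E2A-KO arrays. Of 9 measured markers of conventional dendritic cells, Xcr1, Cd209a, Cd83 and Itgae lay under the array median on every array and Batf3 above it on 1, while Itgax, Zbtb46, Ccr7 and Fscn1 lay above it on all 8. Of the members, Irf8, Siglech, Cox6a2, Tlr7 and Tlr9 lay above it on all 8 arrays, Spib on 7 and Pacsin1 on 3. In these bulk samples fewer cells of a type and less RNA per cell cannot be told apart.

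No member was called in any of the 3 comparisons. Across all genes 0.443% were called in E2A-KO against WT, 0% in HEB-KO against WT and 0.117% in E2A-KO against HEB-KO. The targeted gene Tcf12 itself was not called in HEB-KO against WT (-2.01, SE 0.26, limma adjusted p = 0.328). The absence of a call therefore does not show the absence of a change. In a fit over all 45037 non-control probe sets, which also called none of the 12 of the members, 0.0822%, 0% and 0.00222% were called. At an unadjusted p under 0.05, limma gave 1 of 7 members in E2A-KO against WT, 0 in HEB-KO against WT and 1 in E2A-KO against HEB-KO, against 13.4%, 2.61% and 16.5% of all genes. The 1 member was Cox6a2 both times. The median log2 difference of the members was 0.25 in E2A-KO against WT, 0.21 in HEB-KO against WT and 0.15 in E2A-KO against HEB-KO, beside -0.05, 0.09 and -0.16 over all tested genes. Both comparisons with WT share the same 2 WT arrays, and both comparisons with E2A-KO share its 4 arrays.

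**Figure D1:**
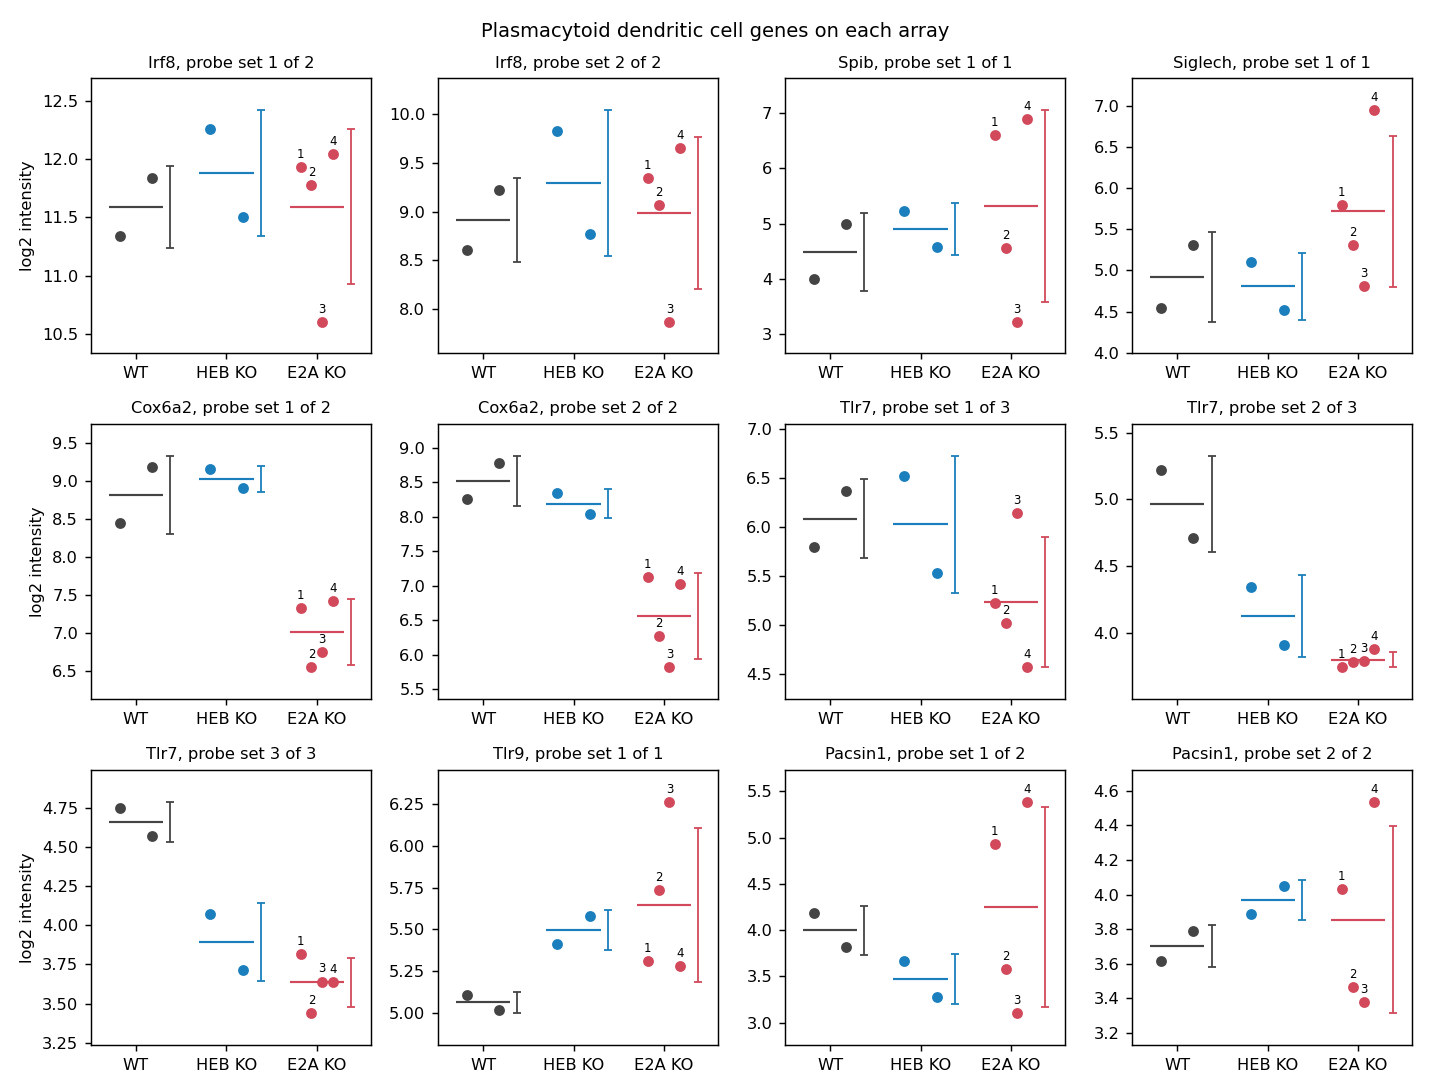
Log2 intensity of the 12 probe sets of the 7 genes on the 8 arrays; points are arrays (E2A-KO arrays carry their replicate number), horizontal lines are genotype means and bars beside them are the SD. Cox6a2 sits lower on all 4 E2A-KO arrays at both probe sets, while Spib spreads from 3.23 to 6.88 among the E2A-KO arrays.

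Cox6a2 encodes the heart and muscle form of subunit VIa of cytochrome c oxidase, the last enzyme of the respiratory chain, and is also a known transcript of plasmacytoid dendritic cells. Its brightest probe set read 8.45 and 9.18 on WT, 9.15 and 8.90 on HEB-KO, and 7.33, 6.55, 6.75 and 7.43 on E2A-KO arrays. All 4 E2A-KO arrays lay below all 4 others, and WT and HEB-KO overlapped. The mean was 8.82 ± 0.51 (SD, n = 2) in WT, 9.03 ± 0.18 (n = 2) in HEB-KO and 7.01 ± 0.43 (n = 4) in E2A-KO cells. The difference between E2A-KO and WT was -1.80 (3.49-fold lower, SE 0.32, 95% interval -2.53 to -1.07), and it did not pass the threshold (limma adjusted p = 0.0598). Arrays of E2A-KO below those of WT without overlap were found for 15.4% of all tested genes. Between E2A-KO and HEB-KO the difference was -2.01 (4.04-fold lower, SE 0.32, adjusted p = 0.0732), and 21.6% of tested genes had arrays apart in that direction. No member had all E2A-KO arrays above those of HEB-KO, as 7.82% of tested genes had. HEB-KO and WT differed by 0.21 (95% interval -0.63 to 1.06).

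The other probe set of Cox6a2 read 8.26 and 8.77 on WT, 8.34 and 8.04 on HEB-KO and 5.82 to 7.12 on E2A-KO arrays. It differed by -1.95 (SE 0.38) in E2A-KO against WT and by -1.63 (SE 0.38) against HEB-KO, with adjusted p of 0.1608 and 0.2229 over all 45037 probe sets. Both probe sets of Cox6a2 read lower on every E2A-KO array than on any other array, and neither passed the test. Its paralogue Cox6a1, the widely expressed form of the same subunit, read 12.43 and 12.49 on WT and 12.43 to 12.72 on E2A-KO arrays, a difference of 0.08 (95% interval -0.35 to 0.52). Cox6a2 was called when the moderation was trended and robust (adjusted p = 0.0361 against WT, 0.0478 against HEB-KO) and with array weights (adjusted p = 0.0354 and 0.0350). Progenitor markers moved with Cox6a2: the mean of the 8 progenitor markers was 10.27 and 10.89 on WT, 10.72 and 10.15 on HEB-KO and 8.78 to 9.20 on E2A-KO arrays. All 8 had a negative difference in E2A-KO against WT. Of these 3, Il7r, Notch1 and Cd93, were called lower, beside 0.443% of all tested genes called. The hybridization control level was higher on 3 of the 4 E2A-KO arrays than on any other array. With that level as a covariate, an alternative added after seeing the data, the difference from WT was -1.38, with adjusted p = 0.556 in limma, where a single gene was called overall. Without WT replicate 2 it was -1.44 (adjusted p = 0.3933) and without WT replicate 1 -2.17 (adjusted p = 0.1492). The part of the progenitor markers in the result was not tested.

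**Figure D2:**
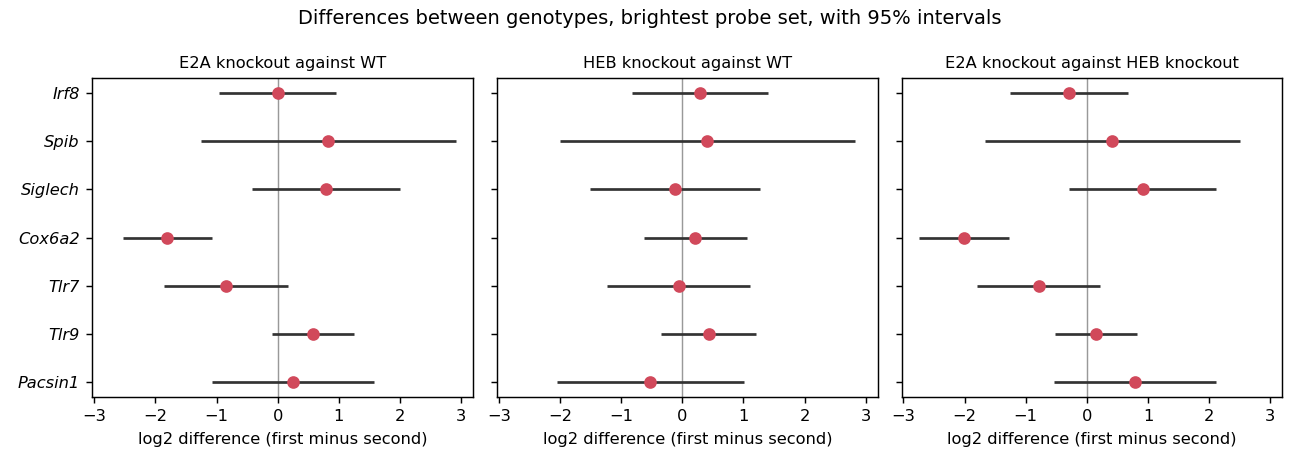
Log2 difference of each gene's brightest probe set (points) with 95% intervals (lines) in the 3 comparisons, first genotype minus second. Only the intervals of Cox6a2 in the comparisons of E2A-KO with WT and with HEB-KO exclude 0 before adjustment over all genes.

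The transcription factors did not pass the test in any comparison. Irf8 encodes an interferon regulatory factor needed for dendritic cells and active throughout early haematopoiesis, and its brightest probe set lay at the 99.4th percentile of all probe sets by mean signal. It read 11.34 and 11.84 on WT, 12.27 and 11.50 on HEB-KO, and 11.94, 11.78, 10.60 and 12.05 on E2A-KO arrays. The genotypes overlapped, and the lowest value was that of E2A-KO 3. The difference between E2A-KO and WT was -0.00031 (SE 0.42, 95% interval -0.96 to 0.96), and without E2A-KO replicate 3 it was 0.33. The second probe set differed by 0.07 (SE 0.51), with 7.87 on E2A-KO 3 and 9.07 to 9.66 on the other E2A-KO arrays. In HEB-KO against WT the brightest probe set differed by 0.29 (95% interval -0.82 to 1.40).

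Spib encodes Spi-B, an ETS factor of plasmacytoid dendritic cells and B cells. It read 4.0 and 4.99 on WT, 5.23 and 4.57 on HEB-KO, and 6.59, 4.57, 3.23 and 6.88 on E2A-KO arrays. E2A-KO 1 and E2A-KO 4 were the highest of all 8 arrays and E2A-KO 3 was the lowest, so the knockout arrays lay on both sides of WT. The SD was 1.73 (n = 4) in E2A-KO cells against 0.70 (n = 2) in WT and 0.47 (n = 2) in HEB-KO cells. Its range of 3.65 over the E2A-KO arrays lay at the 99.7th percentile of tested genes, whose median range was 0.76. The difference between E2A-KO and WT was 0.83 (SE 0.92, 95% interval -1.26 to 2.91, adjusted p = 0.7132), which leaves room for differences in either direction of more than 2-fold. Without E2A-KO replicate 3 it was 1.52.

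The endosomal sensors differed from each other in direction, and neither passed the test. Tlr7 encodes the receptor for single-stranded RNA and Tlr9 the receptor for unmethylated CpG DNA. Tlr7 at its brightest probe set read 5.80 and 6.38 on WT, 6.52 and 5.54 on HEB-KO, and 5.22, 5.02, 6.15 and 4.57 on E2A-KO arrays. Only E2A-KO 3 reached the range of WT, and the difference between E2A-KO and WT was -0.85 (SE 0.45, 95% interval -1.86 to 0.16, adjusted p = 0.4359). Without E2A-KO replicate 3 it was -1.15.

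The other probe sets of Tlr7 did not follow the brightest in HEB-KO cells. The second read 5.22 and 4.71 on WT, 4.34 and 3.91 on HEB-KO and 3.74 to 3.88 on E2A-KO arrays, and the third read 4.75 and 4.57, then 4.07 and 3.72, then 3.44 to 3.82. At both, the WT arrays lay above all 6 knockout arrays. Among all tested genes, at their brightest probe sets, 15.4% had E2A-KO arrays below those of WT and 11.4% had HEB-KO arrays below them. They differed by -1.17 (SE 0.20) and -1.02 (SE 0.18) in E2A-KO against WT and by -0.84 (SE 0.23) and -0.76 (SE 0.21) in HEB-KO against WT. In the fit over all probe sets the adjusted p was 0.1233 and 0.1311 for E2A-KO, and 1 for both in HEB-KO, where the brightest probe set differed by -0.06. The annotation gives both the same source sequence, so they are not independent, and their signal on E2A-KO arrays lay near or under the array median of 3.91 to 3.95, where differences can be understated. With the mean of its 3 probe sets Tlr7 differed by -1.01 in E2A-KO and by -0.56 in HEB-KO cells (adjusted p = 0.1014 and 0.9999).

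Tlr9 read 5.11 and 5.02 on WT, 5.41 and 5.58 on HEB-KO, and 5.31, 5.74, 6.26 and 5.28 on E2A-KO arrays. Every knockout array lay above both WT arrays, with E2A-KO 3 the highest. Its difference from WT was 0.58 in E2A-KO (SE 0.30, 95% interval -0.09 to 1.25, adjusted p = 0.4203) and 0.43 in HEB-KO cells (SE 0.34, 95% interval -0.34 to 1.21). Arrays above those of WT without overlap were found for 9.98% of tested genes in E2A-KO and 23.4% in HEB-KO cells.

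The surface and cytoplasmic genes Siglech and Pacsin1 also failed to separate the genotypes. Siglech encodes a sialic acid binding lectin that signals through the adaptor DAP12 (Tyrobp) and is the usual surface marker of mouse plasmacytoid dendritic cells. It read 4.54 and 5.31 on WT, 5.10 and 4.52 on HEB-KO, and 5.80, 5.32, 4.81 and 6.95 on E2A-KO arrays. E2A-KO 4 was the highest array, and 3 of the 4 E2A-KO arrays lay above both WT arrays. The difference between E2A-KO and WT was 0.79 (SE 0.53, 95% interval -0.41 to 2.00, adjusted p = 0.5467), and 0.38 without E2A-KO replicate 4. Tyrobp read 9.66 and 9.50 on WT and 9.65 to 10.90 on E2A-KO arrays, a difference of 0.62 (SE 0.34, adjusted p = 0.4551).

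Pacsin1 encodes an adaptor of endocytosis that is used by neurons and is known in plasmacytoid dendritic cells for the interferon answer to TLR9. It read 4.19 and 3.81 on WT, 3.66 and 3.28 on HEB-KO, and 4.93, 3.58, 3.10 and 5.39 on E2A-KO arrays. Only WT 1, E2A-KO 1 and E2A-KO 4 lay above the array median, so most of its values are near background. Its difference between E2A-KO and WT was 0.25 (SE 0.58, 95% interval -1.07 to 1.58), and -0.13 without E2A-KO replicate 4. Both HEB-KO arrays lay below both WT arrays at this probe set (-0.53, SE 0.68), as for 11.4% of tested genes, and above them at the second one (0.27, SE 0.37), neither past the test. Probe set 2 had its highest value, 4.54, on E2A-KO 4 as well.

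The members did not all vary together among the E2A-KO arrays. Irf8, Spib, Siglech and Pacsin1 had the same order of arrays, E2A-KO 4 highest, then 1, then 2, then 3, an order found in 6.67% of tested genes. Tlr7 and Tlr9 had their highest value on E2A-KO 3 and their lowest on E2A-KO 4. Cox6a2 was highest on E2A-KO 4 and 1 like the first 4 genes. Each of these orders is a description of 4 arrays.

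Ly6d, the surface protein against which the cells were sorted, had a similar order. It was picked after its values were seen, and read 3.53 and 7.83 on WT, 7.52 and 3.63 on HEB-KO, and 6.75, 4.48, 4.26 and 6.88 on E2A-KO arrays. In each genotype Irf8, Spib, Siglech and Cox6a2 were higher on the arrays with more Ly6d signal: on WT 2 than on WT 1, on HEB-KO 1 than on HEB-KO 2, and on E2A-KO 1 and 4 than on E2A-KO 2 and 3. Of all tested genes 12.3% had that order, against 4 of the 7 members, and 6 of their 12 probe sets. Taken as deviations from the genotype mean over 8 arrays, Pearson's r with Ly6d was 0.87 for Cox6a2, 0.74 for Siglech, 0.73 for Irf8, 0.71 for Spib, 0.49 for Pacsin1, 0.20 for Tlr7 and -0.60 for Tlr9. Among the r of all tested genes these stood at the 95.9th, 88.4th, 87.9th, 86.2nd, 70.4th, 49th and 7.08th percentiles in that order. B-lineage markers went with Ly6d in part, with a mean of 4.34 and 6.05 on WT, 5.56 and 4.36 on HEB-KO and 4.18 to 4.68 on E2A-KO arrays, and a summed intensity of 268 and 1132, then 728 and 336, then 264 to 424. Ly6d is itself 1 of the 9 measured B-lineage markers, and Ms4a1 lay under the array median on every array.

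**Figure D3:**
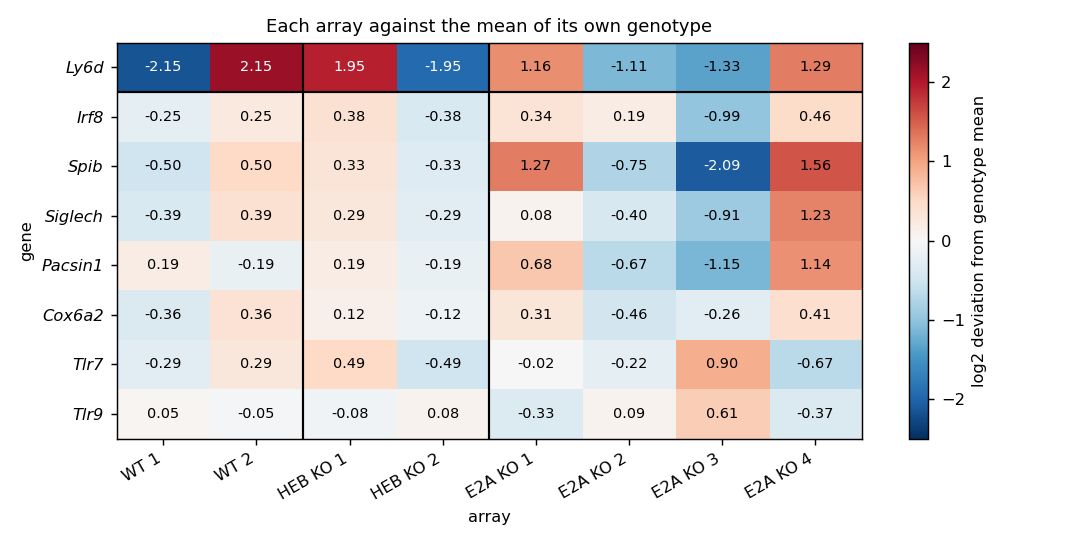
Deviation of each array from the mean of its own genotype (log2, red above and blue below the mean) for Ly6d and the 7 genes at their brightest probe sets. Spib runs from -2.09 on E2A-KO 3 to 1.56 on E2A-KO 4, and Tlr9 has the opposite sign on both.

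E2A-KO 3 differed from the other E2A-KO arrays in some granulocyte and monocyte markers. S100a8, a neutrophil calcium-binding protein, read 8.63 there and 3.11 to 3.90 on the other E2A-KO arrays, beside 3.35 and 6.87 (WT) and 7.66 and 9.84 (HEB-KO). The mean of the 10 markers of that list was 7.07 on E2A-KO 3 against 5.01 to 5.16 on the other E2A-KO arrays, beside 5.40 and 6.26 (WT) and 6.89 and 8.07 (HEB-KO). The summed intensity of the list did not set E2A-KO 3 apart, with 4846, 4690, 4733 and 2592 on E2A-KO 1 to 4, beside 2885 and 3341 (WT) and 4492 and 6601 (HEB-KO). Mpo, a granule enzyme of myeloid cells, read 11.63 on E2A-KO 3 and 12.13, 12.08 and 11.10 on E2A-KO 1, 2 and 4, and Itgam lay under the array median on every array. E2A-KO 3 had the highest hybridization control level, 12.51, and the lowest upper quartile of intensity, 54.88 against 55.79 to 68.51. The part of these in the low Irf8, Spib, Siglech and Pacsin1 values was not tested. Without E2A-KO replicate 3 no member was called in any comparison.

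**Figure D4:**
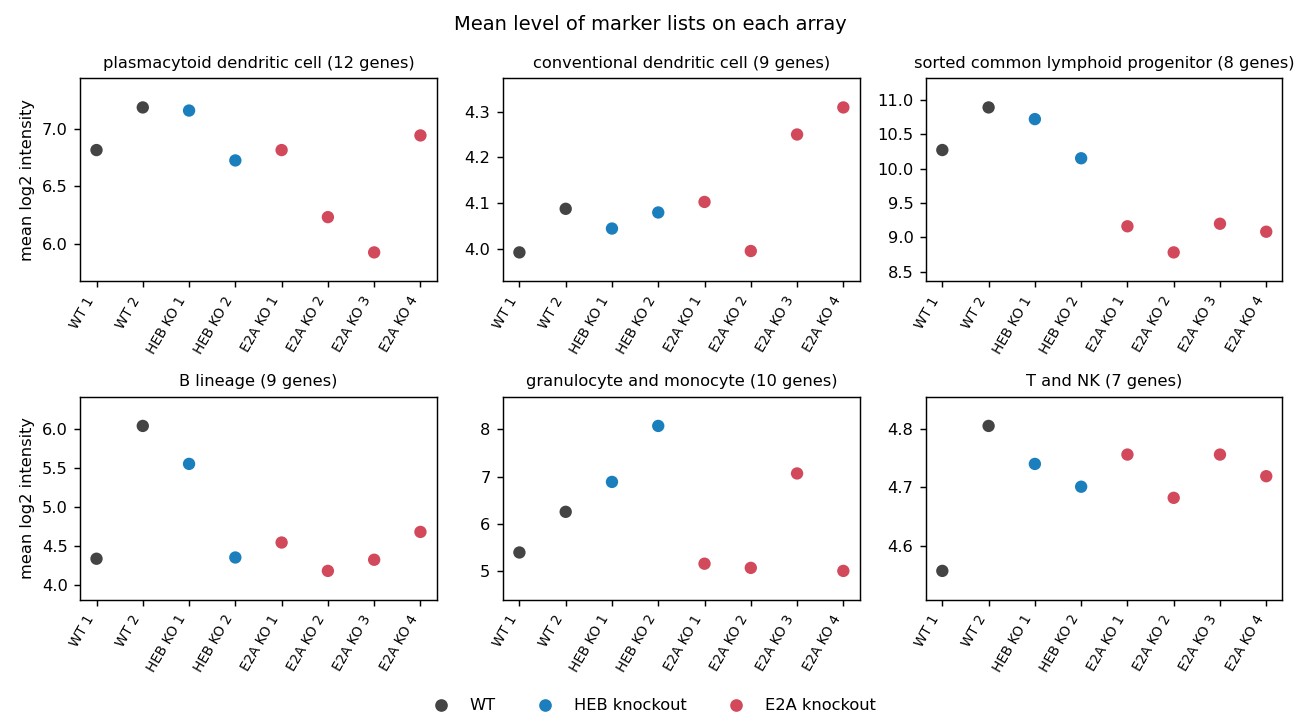
Mean log2 intensity of marker lists (one panel each) on the 8 arrays, coloured by genotype. Progenitor markers are lower on the 4 E2A-KO arrays, and granulocyte and monocyte markers are high on E2A-KO 3 and both HEB-KO arrays.

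Other genes of plasmacytoid dendritic cells held 1 called member. Of 19 listed, 14 were tested, and in E2A-KO against WT 1 was called lower and 0 higher (median -0.12 against -0.05 over all tested genes). Of all tested genes 0.443% were called there. In HEB-KO against WT limma called none, with 1 at an unadjusted p under 0.05, beside 2.61% of all tested genes. In E2A-KO against HEB-KO 1 was called lower, beside 0.117% of all tested genes called. The 1 gene was Ccr9, a chemokine receptor of thymus-seeding progenitors and of plasmacytoid dendritic cells. It read 8.63 and 9.19 on WT, 7.98 and 7.05 on HEB-KO and 2.74 to 4.06 on E2A-KO arrays, and it fell by 5.28 (log2) with loss of E2A (SE 0.42, limma adjusted p = 0.0033). Without WT replicate 2 its adjusted p was 0.0571, and with the hybridization control level as covariate 0.2105. As the mean of its probe sets the difference was -1.75. Between E2A-KO and HEB-KO the brightest probe set was lower by 3.88 (limma adjusted p = 0.0372). That call was lost without E2A-KO replicate 1 (0.0737) or E2A-KO replicate 4 (0.0605). Without HEB-KO replicate 1 the difference was -3.42, and without HEB-KO replicate 2 it was -4.35.

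Tcf4, which encodes E2-2, was present on every array. It read 10.95 and 10.57 on WT, 10.26 and 10.40 on HEB-KO, and 10.39, 10.49, 9.84 and 10.68 on E2A-KO arrays. The E2A-KO arrays overlapped with WT and both HEB-KO arrays lay below it, as for 11.4% of tested genes. Its difference from WT was -0.41 in E2A-KO (SE 0.27, 95% interval -1.02 to 0.20, adjusted p = 0.5360) and -0.43 in HEB-KO cells (SE 0.31, 95% interval -1.13 to 0.28). Its other probe sets differed by -0.37, -0.11, -0.24, -0.15 and 0.13 in E2A-KO against WT. The remaining genes of that list gave values without a call, in both directions. Of the 14 tested, 8 had a negative and 6 a positive difference in E2A-KO against WT. Among the negative were Bst2, an interferon-inducible surface protein (-0.37, SE 0.42), and Pld4, an endolysosomal nuclease (-0.21, SE 0.51). Irf7, the factor that drives interferon transcription, was negative too (-0.43, SE 0.26). Among the positive were Upb1 (1.28, SE 0.45), Clec10a (1.15, SE 0.73), Lag3 (0.50, SE 0.28) and Ptprs (0.35, SE 0.21).

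Of 21 listed genes that carry the signal of endosomal Toll-like receptors 15 were tested, and limma called none in any comparison. Their median difference was -0.14 in E2A-KO against WT, 0.25 in HEB-KO against WT and -0.38 in E2A-KO against HEB-KO. Over all tested genes it was -0.05, 0.09 and -0.16 in the same order. At an unadjusted p under 0.05 there was 1 in each comparison, beside 13.4%, 2.61% and 16.5% of all tested genes. Lgmn, a lysosomal protease that cleaves these receptors, read 3.39 and 4.09 on WT, 5.0 and 3.84 on HEB-KO and 4.49 to 5.46 on E2A-KO arrays. Its E2A-KO arrays lay above both WT arrays (1.36, SE 0.39, adjusted p = 0.1932), as for 9.98% of all tested genes. Traf6, the ubiquitin ligase below MyD88, differed by 1.25 in HEB-KO against WT (SE 0.51, adjusted p = 1), and Ikbkb by -0.54 in E2A-KO against HEB-KO (SE 0.21, adjusted p = 0.2493). Unc93b1, the chaperone that takes Tlr7 and Tlr9 to endosomes, differed by -0.12 (SE 0.30) and Myd88, their common adaptor, by -0.48 (SE 0.21) in E2A-KO against WT, and neither was called.

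Among 14 tested dendritic cell transcription factors and partners limma called none in any comparison. At an unadjusted p under 0.05 there were 3, 0 and 2, beside 13.4%, 2.61% and 16.5% of all tested genes. The median difference was -0.33 in E2A-KO against WT, -0.0034 in HEB-KO against WT and -0.40 in E2A-KO against HEB-KO. Over all tested genes it was -0.05, 0.09 and -0.16 in the same order. Irf1 read 9.02 and 9.02 on WT, 8.98 and 9.10 on HEB-KO and 8.03 to 8.39 on E2A-KO arrays. Its E2A-KO arrays lay below all others, by -0.75 against WT (SE 0.20, adjusted p = 0.1626). Of all tested genes 15.4% had E2A-KO arrays below those of WT, and 21.6% below those of HEB-KO. Id2, which holds E proteins off DNA, differed by -2.15 (SE 0.66, adjusted p = 0.2222) and Stat5a by 0.66 (SE 0.28, adjusted p = 0.3557) in E2A-KO against WT. In HEB-KO against WT these were 0.03 for Irf1, -0.89 for Id2 and 0.21 for Stat5a. Spi1, which encodes the ETS factor PU.1, differed by 0.09 (SE 0.25) in E2A-KO against WT.

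Of the paralogues and partners of the members 12 of 18 were tested, and 1 was called. Of all tested genes 0.443% were called in E2A-KO against WT and 0.117% in E2A-KO against HEB-KO. Their median difference, that of the 12, was -0.07 in E2A-KO against WT, 0.01 in HEB-KO against WT and 0.10 in E2A-KO against HEB-KO. Over all tested genes it was -0.05, 0.09 and -0.16 in the same order. Cd33, which like Siglech belongs to the sialic acid binding lectins, read 6.74 and 6.40 on WT, 6.24 and 6.12 on HEB-KO and 4.41 to 4.87 on E2A-KO arrays. All E2A-KO arrays lay below all others, and Cd33 fell by 1.97 (log2) against WT (SE 0.22, limma adjusted p = 0.0131), while Siglech differed by 0.79 in that comparison. The adjusted p of Cd33 was 0.1303 without WT replicate 1 and 0.1536 without WT replicate 2, and 0.2105 with the hybridization control level as covariate. It was lower by 1.59 than in HEB-KO cells (SE 0.22, adjusted p = 0.0459), a call lost when any single array other than E2A-KO replicate 3 was left out. Siglecg, another lectin of the family, differed by -0.21 and Cd22 by 1.10 in E2A-KO against WT, neither called.

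The genes whose values followed each member most closely over the 8 arrays were found among all tested genes by Pearson's r, as a description. For Cox6a2 they were Acss1, a mitochondrial acetyl-CoA synthetase (r = 0.99), Abi3 (r = 0.99) and Scd2, a fatty acid desaturase (r = 0.99). Acss1 read 6.70 and 7.71 on WT, 7.70 and 7.22 on HEB-KO and 4.23 to 5.78 on E2A-KO arrays, so it was low on the same arrays. For Irf8 they were Akr1e1, Map1lc3a, an autophagy protein, and Ctsb, a lysosomal cathepsin (each r = 0.97). Ctsb read 7.92 on E2A-KO 3 and 8.80 to 9.91 on the other arrays, like Irf8 lowest on E2A-KO 3. For Spib they were Cldn12 (r = 0.97), Reep5 and Filip1 (each r = 0.95), for Siglech Ccr6, Kcnh2 and Cox8b (each r = 0.95), and for Pacsin1 4833418N02Rik (r = 0.95), Zmynd10 and Atp1b1 (each r = 0.94). For Tlr7 they were Zfp472, Armt1 and Gprin3 (each r = 0.97), and for Tlr9 H2-T18 (r = 0.98), BC052688 and Narf (each r = 0.95). Each member was set against 11957 genes over only 8 arrays.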

How the data were processed

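The authors deposited RMA intensity values (per the submitters' processing notes) on a linear scale. The sources used here do not name the RMA version or chip definition. Values were turned into log2 without further normalization. Of 45101 probe sets 64 were controls, 34945 named 1 gene, 932 several and 9160 none. Each gene had its brightest probe set, and 11957 of 18193 genes lay above the array median on at least 2 arrays and were tested. In limma (3.58.1, under R 4.3.3) 1 mean was estimated for each genotype from all 8 arrays, leaving 5 residual degrees of freedom, and contrasts were two-sided; a second fit took all 45037 non-control probe sets. The script was tested on simulated data. The members and lists were chosen with earlier results of these data known. Named from each list were the called genes or up to 3 with the smallest p, further Tcf4, Tcf3, Tcf12 and Id2, and the 3 closest genes by r; others named with values were chosen after these were seen. Alternatives changed filter, normalization, probe set rule, moderation, array weights, arrays and pairing. The number of arrays limits precision.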

Additional observations from a re-analysis of the deposited data

Results flagged for a closer look

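Traf6 on the E2A-KO arrays was singled out because 1 sample stood far from the others: E2A-KO 3 read 4.87 and the other E2A-KO arrays 5.90 to 6.10, a gap of 0.842 of the range. It read 4.94 and 5.99 on WT and 6.26 and 7.17 on HEB-KO arrays. Of 23 probe sets looked at in this way 1 passed, and chance gives about 1 in 20.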

How the results depend on the processing

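Of the 21 alternatives, those that kept both WT and both HEB-KO arrays gave HEB-KO against WT no called member. They gave no called gene over all genes either, so this is not particular to the members. With E2A-KO, 1 member, Cox6a2, was called against WT and 1 against HEB-KO with trended, robust moderation (adjusted p = 0.0361 and 0.0478) and again with array weights (-1.73 and -1.94; adjusted p = 0.0354 and 0.0350), and none otherwise; its adjusted p ran up to 0.6005 and 0.6676. Its difference was negative in both throughout, from -2.17 to -1.38 against WT. With the filter at the 75th percentile, which left out Siglech, Tlr9 and Pacsin1, the median of the members was -0.42 and -0.54 in these comparisons, since fewer members were tested. Leaving out each array gave medians from -0.13 to 0.48, from -0.15 to 0.39 in HEB-KO against WT and from -0.10 to 0.15 in E2A-KO against HEB-KO.

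Signs of small uncalled differences turned, and the cause was not tested. Irf8 in E2A-KO against WT was 0.10 with cyclic loess, 0.036 as mean of probe sets, 0.16 with array weights, 0.26 with or without the replicate block on arrays numbered 1 and 2, 0.81 with the control covariate and 0.25 without both WT 2 and HEB-KO 1. Irf8 against HEB-KO was 0.44 and 0.090 in the last 2. With the covariate Tlr9 was -0.15 and Tcf4 -0.032 against HEB-KO. Tcf4 was -0.075 there with median centring and -0.054 without both arrays. As mean of probe sets Cox6a2 was -0.057 in HEB-KO against WT, Ikbkb 0.025 and Tcf12 0.26 in E2A-KO against WT, and Stat5a -0.041 against HEB-KO. Irf1 was -0.089 in HEB-KO against WT with cyclic loess.

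Leaving out each array turned others. In E2A-KO against WT the ranges were -0.25 to 0.33 for Irf8, -0.13 to 0.63 for Pacsin1 and -0.26 to 0.78 for Traf6. In HEB-KO against WT they were -0.090 to 0.67 for Irf8, -0.085 to 0.91 for Spib, -0.50 to 0.27 for Siglech, -0.15 to 0.58 for Cox6a2, -0.55 to 0.43 for Tlr7, -0.033 to 0.087 for Irf1 and -0.017 to 0.43 for Stat5a. In E2A-KO against HEB-KO they were -0.67 to 0.090 for Irf8, -0.10 to 1.11 for Spib, -0.055 to 0.27 for Tlr9 and -0.094 to 0.19 for Tcf4.

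On the arrays numbered 1 and 2, deviations of same-numbered arrays correlated at -0.28 for WT with HEB-KO and -0.16 for WT with E2A-KO. For HEB-KO with E2A-KO the value was 0.08. With 2 arrays per genotype these values cannot show whether replicate numbers pair the arrays. With the replicate block on arrays numbered 1 and 2, 0 members were called, and calls over all genes in E2A-KO against WT numbered 12, against 59 on the same arrays without the block. Cd33 in E2A-KO against WT was no longer called with the block (-2.13, adjusted p = 0.0732), nor without both WT 2 and HEB-KO 1 (adjusted p = 0.3836). With WT 1 paired to HEB-KO 2 and WT 2 to HEB-KO 1, added after seeing the data, HEB-KO against WT had 0 calls.

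Calls over all genes also moved, and counts over 11957 genes cannot be compared with counts over 7 members. In E2A-KO against WT there were 53, and 21 with all probe sets fitted, 91 with trended, robust moderation, 120 with array weights, 26 with only the genotypes compared, 1 with the control covariate and 0 without both WT 2 and HEB-KO 1. Leaving out each array gave 2 (without WT replicate 2) to 104 (without E2A-KO replicate 3). In E2A-KO against HEB-KO there were 14, and 1, 42, 91, 6, 1 and 0 in the same order, 21 with median centring, 3 on arrays numbered 1 and 2 with or without the block, and 1 to 21 without each array.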
